A study of Mus musculus with 12 samples.

Results

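The clustered histone genes are the rows of the deposited table whose symbol begins with Hist1h, Hist2h, Hist3h or Hist4h. There were 65 such genes among the 30743 rows, with 6 of class H1, 15 of H2A, 19 of H2B, 12 of H3 and 13 of H4. The RNA came from whole livers of male C57BL/6J fetuses at 15 ± 0.5 dpc (days post coitum). The dams had received either a control diet with 13.5 kcal% fat or a high-fat diet (HFD) with 60 kcal% fat for 12 to 14 weeks, and 6 fetal livers were sequenced per diet. The labels name no transgene or deletion, and they do not say which fetuses were littermates. The mRNA was purified by polyA selection before random-primed cDNA synthesis, and the kit does not keep the strand.

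The value used for each gene was the authors' average over all 12 livers, in log2 CPM (counts per 1000000 reads). Values of single livers were not analysed here, so the spread between livers is unknown and the diets were not compared. A level in whole liver also cannot tell fewer cells of a type from less RNA per cell.

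Each nucleosome wraps DNA around pairs of the core histones H2A, H2B, H3 and H4, and the linker histone H1 binds where the DNA enters and leaves. Most core and linker histone genes lie in clusters and are transcribed in S phase, when replicated DNA must be packaged. Their mRNAs are unusual in that they typically end shortly after a conserved stem-loop, which is bound by the stem-loop binding protein SLBP, and carry no poly(A) tail. Several of these genes can also yield mRNAs that continue past the stem-loop and are polyadenylated, for instance in differentiated cells. The fetal liver at this age is both a liver and a site of blood formation, with many dividing erythroid precursors.

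The stem-loop was looked for after the stop codon of each gene's longest annotated transcript, as the pattern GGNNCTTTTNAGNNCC (N is any base) on the sense strand. It was found in 40 of the 65 clustered histone genes and in 19 of 21855 other protein-coding genes (0.0869%). Of those 19 other genes, 12 were in the table, and 5 of the 19 bore histone names. These included Hist1h2ad, Hist1h2ap and Hist2h2aa2, clustered histone genes that have no row in the table. Another was H2afx, the DNA-damage histone, which is known to produce mRNAs of both kinds and stood at 391 CPM. The following examples show the motif in capitals with its flanking bases, in the sense direction, and were chosen because they include the highest genes of 4 classes and the different forms of the stem. They are from GENCODE transcripts on GRCm38 (mm10).
Hist1h1c, chr13:23739507-23739536, plus strand: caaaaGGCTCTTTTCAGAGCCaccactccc
Hist1h4i, chr13:22040957-22040986, minus strand: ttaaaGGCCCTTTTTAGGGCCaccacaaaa
Hist3h2a, chr11:58955167-58955196, plus strand: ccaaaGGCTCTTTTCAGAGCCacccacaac
Hist2h3c1, chr3:96247322-96247351, plus strand: acaaaGGCTCTTTTCAGAGCCaccacagct
Hist1h3c, chr13:23745038-23745067, minus strand: aaaaaGGCTCTTTTAAGAGCCacctaagat
Hist1h4b, chr13:23757361-23757390, plus strand: caaaaGGTCCTTTTCAGGACCactcactga

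The form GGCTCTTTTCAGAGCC was the most frequent and stood in 22 genes. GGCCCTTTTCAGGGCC stood in 7 and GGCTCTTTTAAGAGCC in 6. The forms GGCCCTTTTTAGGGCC and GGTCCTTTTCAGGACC stood in 2 genes each, all of them H4 genes. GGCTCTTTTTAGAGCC was found in Hist2h2ac alone.

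Clustered histone genes were widely detected, and a few of them held most of their summed signal. Reads were recorded for 63 of the 65 (96.9%), against 63.9% of all rows, while 25 of 65 (38.5%) exceeded 1 CPM, against 33.1% of all rows. The median clustered histone gene stood at -0.54 log2 CPM, about 85 reads summed over the 12 livers. The median of all rows with reads was 0.20, a set that leaves out rows with 0 reads, whereas the 65 genes include such rows. Among all rows, the median clustered gene (Hist2h4) stood above 63.5%. Together the 65 genes summed to 439 CPM, of which Hist1h1c held 44.9%, the highest 4 genes 81.1% and the highest 8 genes 88.0%. At a limit of 0.5 CPM 46 genes passed, and at 2 CPM 12 did.

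Low values in this table have to be read with care. Several genes that every cell uses were listed at low values, some at or near 0, a comparison chosen after these values were seen. Rps25 and Rps28, which encode ribosomal proteins, had 0 reads, Ppia had 2 and the glycolytic enzyme gene Gapdh stood at 5.20 CPM. Other such genes were high, with Actb at 2581 and Eef1a1 at 5951 CPM. Among 77 ribosomal protein genes 12 were under 1 CPM, although their median was 4.07 log2 CPM. The median was -0.29 log2 CPM for genes with 1 RefSeq mRNA and -0.90 for genes with 2 or more. A histone gene at a low or 0 value is therefore given as listed there, and the part of counting rules in it was not tested.

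Levels are compared between genes per kb of coding sequence, on the linear CPM scale. H1 genes had the highest median at 5.16 CPM per kb, followed by H2B at 2.54, H4 at 2.06, H3 at 1.72 and H2A at 1.55. These medians lay close together beside the range within each class. H2B genes ran from 0.397 CPM per kb for Hist1h2ba, which had 0 reads, to 145 for Hist1h2bc, and H4 genes from 0.796 for Hist1h4b to 171 for Hist1h4i. The average adds a constant of 0.152 CPM to every gene, which lifts low values most. It is all of the Hist1h2ba value, and Hist1h4b had 0.096 of its 0.248 CPM after it was subtracted. By summed CPM, not divided by length, the classes held 48.4% (H1), 28.8% (H2B), 14.3% (H4), 4.68% (H2A) and 3.76% (H3). Per kb of coding sequence H1 held 34.8% and H2B 34.7%. Without its single highest gene the share of H1 was 6.34% and that of H4 2.45%.

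**Figure D1:**
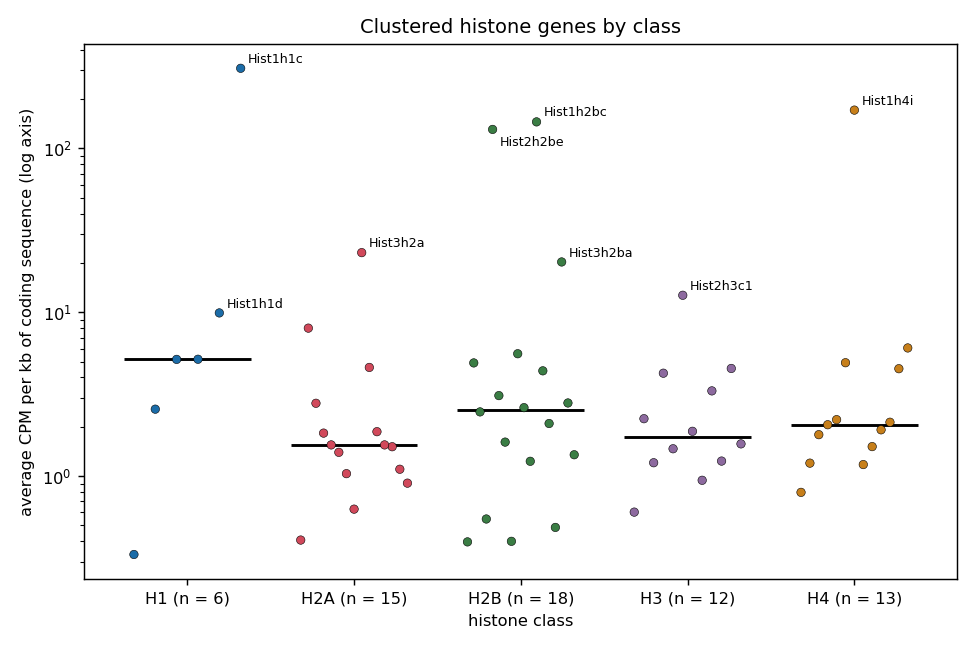
Average CPM per kb of coding sequence (log axis) of the 64 coding clustered histone genes, 1 point per gene, by class; lines are medians. In H1, H2B and H4 a few genes stand far above the rest of their class, led by Hist1h1c at 308, and the medians lie between 1.55 and 5.16. Values include the constant of 0.152 CPM added by the average, divided by length.

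The linker histone genes were led by Hist1h1c. It stood at 7.62 log2 CPM (197 CPM), from about 31032 reads over the 12 livers, and ranked 767 among the 30743 rows. Per kb of coding sequence it reached 308 CPM, 31.1-fold above the next linker gene, Hist1h1d, at 9.91 CPM per kb. Hist1h1d had 1016 reads, Hist1h1b 522, Hist1h1e 513 and Hist1h1a 235. Hist1h1b and Hist1h1e were level at 5.16 and 5.17 CPM per kb, and Hist1h1a stood at 2.56. The sixth linker gene, Hist1h1t, encodes a testis-specific form that is made in spermatocytes, and was listed with 9 reads. Nearly all of the sequence of Hist1h1d, Hist1h1a, Hist1h1b and Hist1h1t was found in no other annotated gene: 97.7% of the 50-base words of Hist1h1d, and 100% of those of the other 3. For Hist1h1e 68.0% of words were unique, and 23.8% were shared with the long annotated transcript of Hist1h2be, which overlaps it.

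H2B genes supplied high values too, from a pair of genes. Hist1h2bc stood at 5.79 log2 CPM with 8696 reads, and Hist2h2be at 5.64 with 7818. Their coding sequences are equally long, and per kb of it they reached 145 and 131 CPM, a ratio of 1.11. Per kb of the longest transcript the ratio was 2.52. Hist3h2ba followed with 20.3 CPM per kb of coding sequence. Further H2B genes above 1 CPM were Hist2h2bb, Hist1h2bg, Hist1h2bj, Hist1h2bm and Hist1h2bh, from 5.58 CPM per kb for Hist2h2bb to 2.79 for Hist1h2bh. The lowest H2B gene with reads was Hist1h2br (7 reads), whose coding sequence is 100% identical to that of Hist1h2bq (11 reads). Hist1h2ba, a testis H2B, and Hist1h2be were listed with 0 reads. For 0 reads the exact Poisson 95% interval reaches up to 0.0234 CPM, by counting error alone.

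A single gene likewise dominated H4. Hist1h4i stood at 5.74 log2 CPM with 8400 reads, and per kb of coding sequence (171 CPM) it was 28.3-fold above Hist4h4, the next H4 gene at 6.06. Hist4h4 is the only clustered histone gene on chromosome 6 in the table and had 274 reads. Hist1h4k and Hist1h4d were at 4.92 and 4.52 CPM per kb. The other 9 H4 genes lay under 1 CPM, down to Hist1h4b with 15 reads. The coding sequences of all these genes are 312 bases long, so their order is the same before and after division by coding length.

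No H2A or H3 gene came near these levels. Hist3h2a was the highest H2A gene with 3.18 log2 CPM, 1408 reads and 23.1 CPM per kb of coding sequence. Hist1h2ac reached 8.00 CPM per kb, Hist1h2ae 4.61 and Hist1h2ak 2.78. Hist1h2aa, a testis H2A, was the lowest with 1 read. Among H3 genes Hist2h3c1 was highest, at 2.79 log2 CPM, 1068 reads and 12.7 CPM per kb, followed by Hist1h3c at 4.54, Hist1h3g at 4.25 and Hist1h3d at 3.31. The lowest was Hist1h3h with 15 reads. Hist3h2a shared 31.5% of its words with the neighbouring gene Trim17, and 100% of the words of Hist2h3c1 were also in the annotated gene Gm20634, so reads of these genes could have been split or assigned elsewhere.

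Counting error separated the leading genes from the rest but not each from its neighbours. After the constant added by the average was subtracted, Hist1h1c had 197 CPM with an exact Poisson 95% interval of 195 to 199. The intervals of Hist1h2bc (54.0 to 56.4) and Hist1h4i (52.2 to 54.5) overlapped, and that of Hist2h2be (48.5 to 50.7) lay under both. Hist2h3c1 (6.38 to 7.20) overlapped Hist1h1d (6.06 to 6.86). These intervals do not hold the differences between livers, and PCR copies are not independent molecules.

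By cluster, the 52 Hist1 genes on chromosome 13 included 19 above 1 CPM, the 9 Hist2 genes on chromosome 3 included 3, and the 3 Hist3 genes on chromosome 11 included 2. In the Hist2 cluster Hist2h2be, Hist2h3c1 and Hist2h2bb exceeded 1 CPM. The other 6 were Hist2h3c2 (121 reads), Hist2h4 (85), Hist2h2aa1 (72), Hist2h2ac (69), Hist2h3b (37) and Hist2h2ab (15). The Hist2 genes Hist2h3c1, Hist2h2bb, Hist2h2aa1 and Hist2h3b had no unique 50-base word in the annotation. The remaining Hist3 gene, Hist3h2bb-ps, is annotated as a processed pseudogene and had 46 reads.

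The genes differed in how far their annotated transcripts run. In 23 genes the longest transcript ran more than 60 bases past the stem-loop, and in 17 it ended within 60 bases of it. In 11 genes the annotated sequence after the stop codon held no match, which does not show that the gene lacks the stem-loop. That sequence was as short as 1 base in Hist1h2af and 2 in Hist1h2ah. With 1 mismatch allowed, the group numbered 9. In 13 further genes no bases after the stop codon were annotated. Genes running past the stem-loop had a median of 0.86 log2 CPM, and 15 of 23 exceeded 1 CPM. Genes ending at it had a median of -0.72, and 2 of 17 exceeded 1 CPM, namely Hist1h2bj and Hist1h2bm. The genes in which no match was found had a median of -0.57, and those with no bases after the stop codon -1.09.

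Whether the groups differed depended on the length by which levels were divided. Per kb of coding sequence, the medians were 4.54 CPM for genes running past the stem-loop and 1.57 for genes ending at it. They were 1.61 for genes with no match found and 1.23 for genes with no bases after the stop codon. Levels were also taken per kb of the longest transcript, whose length is part of how the groups are defined. The medians were then 1.09 CPM for genes running past the stem-loop and 1.26 for genes ending at it. They were 1.08 for genes with no match found and 1.23 for genes with no bases after the stop codon. The range was wider in genes running past the stem-loop. On the log2 CPM scale the genes ending at the stem-loop lay between -2.01 and 0.74, whereas those running past it lay between -2.71 and 7.62. Hist1h1c and Hist1h4i run 840 and 330 bases past the stem-loop. Hist1h2bc and Hist2h2be have 742 and 2192 annotated bases after the stop codon in which the motif was not found. Hist1h2bc is among 5 clustered genes annotated as spliced. Its longest transcript has 2 exons, and the motif was sought in the spliced sequence only. Whether the motif lies in bases removed by splicing was not tested. The gene models on which the authors counted reads are not given in the sources used here, so whether reads past the stem-loop were counted is unknown.

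**Figure D2:**
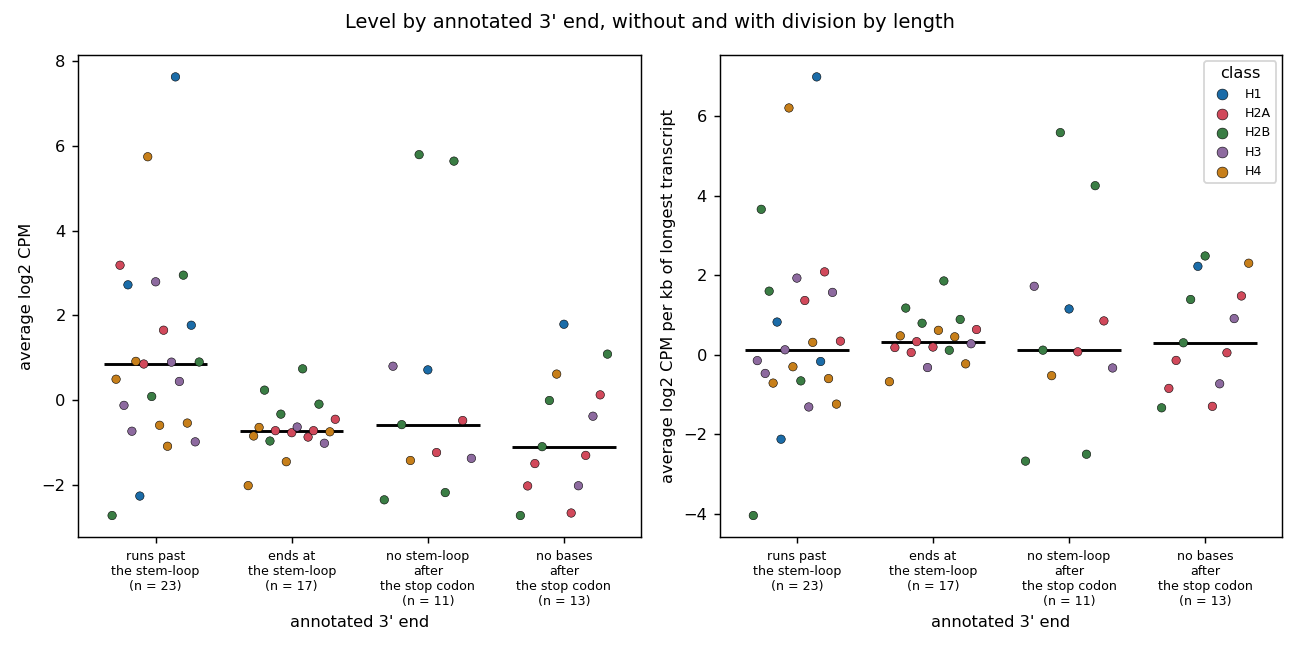
Average log2 CPM (left) and average log2 CPM per kb of the longest transcript (right) of the 64 coding genes by annotated 3' end, 1 point per gene, colours for class, lines for medians. On the left the genes running past the stem-loop have the highest median (0.86), while on the right the 4 medians lie between 0.11 and 0.33.

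Cleavage and polyadenylation of ordinary mRNAs usually follow the hexamer AATAAA by a short distance. This hexamer stood in the last 40 bases of the longest transcript in 14 of the 65 clustered histone genes, against 57.4% of other protein-coding genes. Counting any annotated transcript of a gene added Hist1h2be, which had 0 reads, and gave 15. In the 13 genes with no annotated bases after the stop codon this window held only coding sequence, and none had the hexamer there. The share among the clustered genes thus depends on how completely their ends are annotated. The transcript ends of Hist1h1c, Hist2h2be and Hist3h2a are shown because these genes are among the highest 5, and Hist1h1t is shown as a low gene that has the hexamer too. The hexamer is in capitals, and each sequence is in the sense direction on GRCm38.
Hist1h1c, chr13:23740339-23740367, plus strand: tctAATAAAaagcgtttagttttcattca
Hist2h2be, chr3:96223714-96223738, plus strand: attAATAAAgttaccgattagtttc
Hist3h2a, chr11:58956794-58956823, plus strand: cccAATAAAataagagtacgtgtataacat
Hist1h1t, chr13:23696696-23696725, plus strand: cagAATAAAggtcaccattgaaacacacaa

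The 15 genes with the hexamer in any transcript held 63.2% of the summed CPM, and 7 of 15 exceeded 1 CPM, against 18 of 50 without it. Their median was -0.54 log2 CPM against -0.53, but this rested on Hist1h2be: by the longest transcript alone the medians were 0.16 for 14 genes and -0.59 for 51. The direction also depended on the divisor. For the 15 and 50 genes the medians were 2.21 and 1.92 CPM per kb of coding sequence, and 0.694 and 1.24 CPM per kb of the longest transcript. Most of the summed CPM came from Hist1h1c, which alone held 71.1% of that of the 15. Among the 40 genes with a stem-loop, the 10 that also had the hexamer in any transcript had a median of 0.89 log2 CPM and the 30 without it -0.52. Neither Hist1h2bc nor Hist1h4i, next in level after Hist1h1c, had the hexamer in its last 40 bases.

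Many core histone genes of a class are nearly identical in sequence, and reads that fit several genes may be dropped or split. H1 genes are less alike, with coding sequences 61.5% to 83.6% identical to their nearest relative. The median gene had a coding sequence 98.0% identical to its nearest relative among the 65, and 50.5% of its 50-base words occurred in no other annotated gene. The 32 genes above that median share of unique words had a median of 0.34 log2 CPM, and 18 of them exceeded 1 CPM. The 33 at or under it had a median of -0.73, and 7 exceeded 1 CPM. Across the 64 coding genes the share of unique words and log2 CPM had a Pearson r of 0.41 and a Spearman rho of 0.39, given as a description, since the genes share libraries and sequence. The medians were 3.10 and 1.55 CPM per kb of coding sequence, and 1.25 and 1.14 CPM per kb of the longest transcript. Low values were also found among unique genes, as in Hist2h4, with 99.0% unique words and 85 reads.

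**Figure D3:**
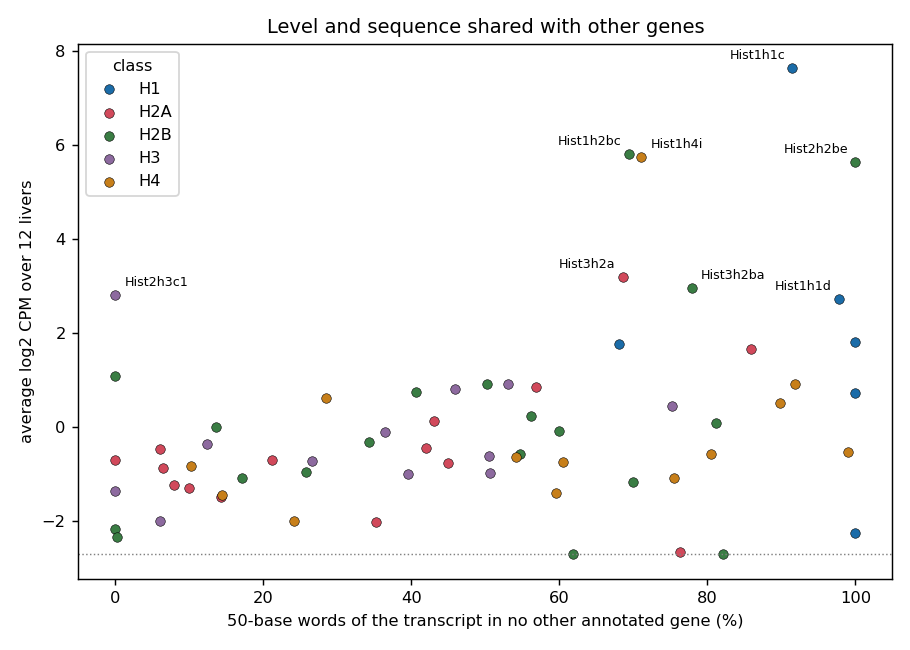
Average log2 CPM against the share of a transcript's 50-base words that occur in no other annotated gene, 1 point per gene, coloured by class; the dotted line is the value of a gene with 0 reads. The highest 4 genes have shares of 69.4% or more, whereas Hist2h3c1 stands at 2.79 with a share of 0%.

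Many H2A and H2B genes are arranged back to back and transcribed away from each other. In 11 such pairs the annotated starts were 173 to 306 bases apart. Coding lengths within a pair are nearly equal, except that the pseudogene Hist3h2bb-ps, paired with Hist3h2a, has no annotated coding sequence. H2B was the higher gene in 7 pairs and H2A in 4. The latter include the pair with the pseudogene and the testis pair Hist1h2aa and Hist1h2ba with 1 and 0 reads. The median difference was 0.92 log2 CPM. In 3 pairs the levels differed by more than 4-fold. Hist2h2be exceeded Hist2h2ac 86.5-fold per kb of coding sequence (7818 against 69 reads), and Hist1h2bc exceeded Hist1h2ac 18.2-fold (8696 against 471 reads). Per kb of the longest transcript the folds were 16.8 and 37.8, so which pair was more uneven depended on the divisor. These folds include the constant added by the average, which lowers a fold where the lower gene has few reads. After it was subtracted, Hist2h2be had 49.6 CPM and Hist2h2ac 0.437. Hist3h2a stood at 4.23 and the pseudogene Hist3h2bb-ps at 0.955 CPM per kb of transcript (1408 against 46 reads). By contrast, Hist1h2ae and Hist1h2bg, whose starts are 176 bases apart, had 261 and 271 reads.

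**Figure D4:**
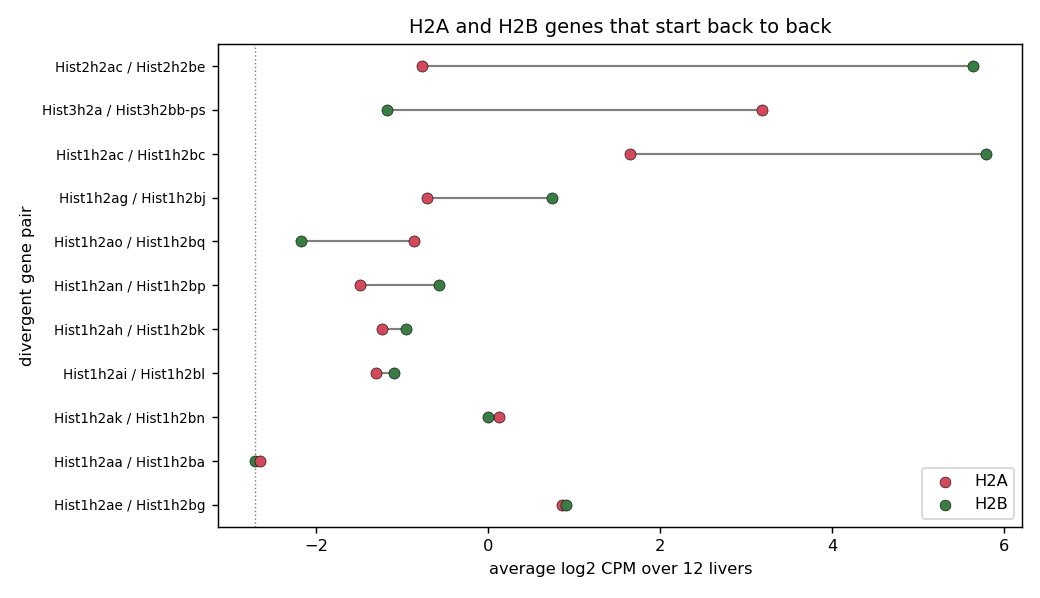
Average log2 CPM of the H2A (red) and H2B (green) gene of each of the 11 back-to-back pairs, ordered by the size of the difference; the dotted line is the value of a gene with 0 reads. The top 3 pairs differ by 4.14 to 6.40 on the log2 scale, and the bottom pair by 0.05.

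Promoters of H2A and H2B genes are known for the octamer ATTTGCAT, which the transcription factor Oct-1 binds. RefSeq promoter sequences (GRCm38.p6, 250 bases before to 50 after the start) were matched for 59 of the 65 genes. The octamer, on either strand, was present in 14 of these: 7 of 15 H2A promoters, 7 of 16 H2B promoters and none of the H1, H3 or H4 promoters, against 1.74% of all promoters. In pairs, 1 site can fall within both promoter windows and be counted for both genes. The sites of the evenly matched pair and of the H2A partners of Hist2h2be and Hist1h2bc are shown with the octamer in capitals. Each is on its gene's strand, so that a site on the other strand reads ATGCAAAT.
Hist1h2bg, chr13:23571331-23571358, plus strand: tgagtcccttATTTGCATagaacctcta
Hist1h2ae, chr13:23571331-23571358, minus strand: tagaggttctATGCAAATaagggactca
Hist2h2ac, chr3:96221063-96221090, minus strand: tgaacgccttATGCAAATtaggtctcaa
Hist1h2ac, chr13:23684072-23684099, minus strand: gggtgggattATGCAAATgaagtttcca

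Hist1h2bg and Hist1h2ae thus hold the same site between them. Among H2A genes 3 of 7 with the octamer exceeded 1 CPM, against 1 of 8 without it, and among H2B genes 3 of 7 against 3 of 9. The median levels with and without it were 1.87 and 1.47 CPM per kb of coding sequence for H2A, and 2.47 and 2.09 for H2B. Hist1h2bc and Hist2h2be, the highest H2B genes, were among those with no matched promoter and are not in these counts. The sites shown for Hist2h2ac and Hist1h2ac nevertheless lie between the starts of their pairs. They precede the annotated starts of Hist2h2be (chr3:96221119) and Hist1h2bc (chr13:23684199). TATAAA on the gene's strand was present in 29 of the 59 promoters (all promoters 8.98%) and CCAAT on either strand in 50 (all promoters 37.7%). CCAAT was present in every matched H1, H2A, H2B and H3 promoter but in 3 of 12 H4 promoters.

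Replication-independent histone genes supply histones outside S phase, and most have ordinary polyadenylated mRNAs. H2afx, which was also in the list, has the stem-loop as described above. Of 12 in the list used, 11 exceeded 1 CPM, and together they summed to 1892 CPM, against 439 CPM for the 65 clustered genes, both without division by length. H3f3b, which encodes H3.3, stood at 682 CPM, the linker histone gene H1f0 at 426, H2afx at 391 and H3f3a at 227. Hist1h1c, at 197 CPM, was the only clustered gene of that order. H2afz, which encodes the variant H2A.Z, was listed with 54 reads, a value that carries the caution given above.

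Genes that act on histone mRNA or on histones were mixed. Of 14 genes for histone transcription and 3' end processing, 8 exceeded 1 CPM. Npat, the coactivator of clustered histone genes, stood at 118 CPM, Lsm10 of the U7 snRNP at 1.77 and Eri1, an exonuclease that trims the stem-loop end, at 177. Slbp was listed with 11 reads, a low value that carries the same caution. All 8 histone chaperone genes exceeded 1 CPM, from Nasp at 25.5 CPM to Rbbp4 at 919. Of 17 S phase genes 15 did, among them Rrm2 at 1304, Mcm2 at 859 and Pcna at 524 CPM, while Mcm5 was listed with 0 reads.

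Leading markers of the labelled tissue were high. The hepatocyte genes Alb and Afp stood at 15.95 and 15.73 log2 CPM, and the erythroid gene Slc4a1 at 13.56. Alas2, also an erythroid gene, was listed with 87 reads, and only 3 of the 6 erythroid markers chosen had a row. All 4 hepatocyte markers, 1 of 3 leukocyte, 2 of 3 endothelial and 2 of 3 mesenchymal markers exceeded 1 CPM. None of the 3 testis germ cell markers did, with Prm1 and Sycp3 at 0 reads and Ddx4 at 8, beside 9, 1 and 0 reads of the testis histone genes Hist1h1t, Hist1h2aa and Hist1h2ba.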

How the data were processed

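PolyA-selected RNA of 12 fetal livers, 6 per diet, was sequenced on a HiSeq 2000. Per the labels the authors used cutadapt 1.2.1, Subread 1.3.6-p1, mm10 and edgeR; genes were annotated with biomaRt, and the counting tool and the release of the gene models are not given in the sources used here. The authors deposited a table of their edgeR comparison: log2 fold changes, fold changes, p-values and adjusted p-values with common and tagwise dispersions, which were not used, and the average log2 CPM, which was. No column holds a single liver, so the tests planned for the diets were not run.

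The lowest average, -2.71 log2 CPM (0.152 CPM), held 11091 rows and was read as 0 reads. Reads over the 12 libraries were recovered from the distance to it with a prior count of 2. The 1267 rows taken as 1 read were picked with that prior, so the prior of 2.00 they gave back is not an independent estimate. Their read estimates lay between 0.984 and 1.01. The mean normalized library size was 13129800 reads, so 1 CPM corresponds to 158 reads over the 12 libraries. CPM values include the prior unless the text says that it was subtracted. Intervals are exact Poisson intervals (95%) and cover counting error only. The recovery was tried on data simulated with the same prior count, which cannot show whether the authors' averages used it.

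The longest coding transcript of each gene, coding lengths and positions came from GENCODE M21 (GRCm38) and promoters from RefSeq (GRCm38.p6), matched through synonyms. Words of 50 bases were compared with all other annotated genes' transcripts on both strands. Python 3.11.15, pandas 2.3.3, numpy 2.4.6 and scipy 1.17.1 were used.

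Genes named were, per class, those above 1 CPM (at most 8), the lowest with reads, all H1, Hist2, Hist3 and Hist4 genes and 3 testis genes, with further genes that a comparison turned on. The genes and lists were chosen with earlier results of these data known. The hexamer comparison, the ubiquitous genes and the division by transcript length within 3' end, hexamer and unique-word groups were added after values were seen. One marker gene is not reported here.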

Additional observations from a re-analysis of the deposited data

How the results depend on the processing

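No paired analysis was possible because no values of single livers were analysed here, and for the same reason no alternative of the diet comparison and no omission of a replicate was run. The other average column held the same values. Of the alternatives, 29 left a value within counting error, or a count within 1.5 times, and 33 moved it. Genes above 1 CPM numbered 25, against 46 above 0.5 CPM and 12 above 2 CPM. The summed CPM was 439, 429 with the lowest value subtracted and 242 without Hist1h1c. With the lowest value subtracted the shares of H1, H2A and H3 were 49.3%, 4.26% and 3.42%. Per kb of coding sequence the shares were 34.8% (H1), 5.49% (H2A), 34.7% (H2B) and 21.2% (H4). Without the highest gene of the class they were 6.34% (H1), 2.67% (H2A), 18.5% (H2B), 2.21% (H3) and 2.45% (H4). Class medians were 1.78 (H1), -0.72 (H2A), -0.09 (H2B), -0.50 (H3) and -0.64 (H4) log2 CPM. Per kb of coding sequence they were 2.37, 0.63, 1.34, 0.78 and 1.04, and per kb of the longest transcript 0.99, 0.19, 0.79, -0.012 and -0.23 in the same order. Per kb of the longest transcript the log2 medians by annotated 3' end were 0.12 (past the stem-loop), 0.33 (at it), 0.11 (no match found) and 0.30 (no bases after the stop codon). On that scale genes with few unique words had 0.19, against -0.73 log2 CPM, and genes without AATAAA 0.31, against -0.53. By the longest transcript alone, without Hist1h2be, genes with AATAAA had 0.16, against -0.54 log2 CPM. A limit of 150 bases after the stem-loop, 1 mismatch in it, words of 100 bases and the last 60 bases for AATAAA left the medians within counting error. Depth limits the genes with few reads: 15 reads give 0.053 to 0.157 CPM.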
